A study of Homo sapiens with 4 samples.

Results

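The mRNA levels of 10 genes of the ETS family of transcription factors were followed in Huh7 and HepG2 cells with and without siRNA against COP1. The genes were given as a list of names, with no threshold on measured values: ETV1, ETV4, ETV5, ETS1 and ETS2, whose proteins are known substrates of COP1 or close relatives of one, and ETV6, ERF, ELK1, ELF3 and GABPA, other members of the family. All 10 were found among the 46427 genes of the tables. Both are long-established human lines from liver tumours, labelled as wild type and as hepatocellular carcinoma. Each line was given 20 nM siRNA, either a negative control (NC-siRNA) or one specific for COP1 (COP1-siRNA), in Lipofectamine 2000 for 5 h, and cells were harvested 48 h later. The knockdown was transient, with 1 siRNA sequence for COP1. There was 1 library of polyadenylated RNA for each line and siRNA, 4 libraries in all, so no difference within a line has a replicate check.

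ETS factors share a winged helix-turn-helix domain, the ETS domain, which binds DNA at sites with a GGA core. Many are end points of the RAS-ERK pathway, which phosphorylates them, while others such as GABPA act on housekeeping and mitochondrial genes. COP1 is an E3 ubiquitin ligase that, together with DET1, DDB1 and a CUL4 scaffold, marks ETV1, ETV4, ETV5 and other proteins for degradation by the proteasome. Its action on these substrates is on the protein. The libraries measured mRNA, and no protein level was analysed here.

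Levels are given in TPM, a share of all transcripts that is corrected for gene length and sums to 1000000 in each library, on which genes can be compared. A difference between libraries is given as a log2 fold change of TPM + 1, which understates the change of genes near or below 1 TPM, and a gene was compared where it reached 1 TPM in at least 1 of the libraries compared. The files used here give no read counts, so the depth is unknown. Deeper libraries have more coverage for the same FPKM, and that quotient ran from 5.75 to 7.47 over the 4 libraries and was higher in the COP1-siRNA library of each line. COP1 mRNA went from 19.7 to 6.18 TPM in Huh7 cells and from 26.9 to 16.1 TPM in HepG2 cells, log2 fold changes of −1.53 and −0.71. The knockdown was thus shallower in HepG2 cells in these libraries. Of 8 liver parenchymal markers (ALB, AFP, APOA1, APOB, TTR, SERPINA1, TF and HNF4A), all were present in each library, and their summed level was 17849 and 15778 TPM in Huh7 cells and 2665 and 3067 TPM in HepG2 cells with NC-siRNA and COP1-siRNA. Of 8 markers of other cells, PTPRC and CD3E were listed at 0 in every library, and the summed level of the list was 5.32 and 7.58 TPM in Huh7 cells, nearly all of it PECAM1, and 3.79 and 3.19 TPM in HepG2 cells.

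None of the 9 ETS factor genes that could be compared differed by 2-fold or more between COP1-siRNA and NC-siRNA in either line on the scale of TPM + 1, and ETS1, under 1 TPM in every library, was not compared. By the ratio of the TPM values themselves, ETV4 came nearest in Huh7 cells, at 53.0% of its control level, and ETV1 and ETV5, its closest relatives, were at 71.7% and 70.5%. In HepG2 cells the same 3 genes lay between 89.0% and 108% of control. The gene that differed most in HepG2 cells was ELF3, a low-level gene there, which went from 0.662 to 1.64 TPM, a ratio of 2.48. Between the lines with NC-siRNA, the TPM values of some factors differed far more. ELF3 differed by 50.5-fold and ETV1 by 8.76-fold in favour of Huh7 cells, and GABPA by 3.89-fold in favour of HepG2 cells. With COP1-siRNA the ratio of ELF3 was 24.9. ETV4, ETS2 and ETV6 differed by only 1.47-fold, 1.43-fold and 1.59-fold with NC-siRNA, in favour of Huh7 cells.

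**Figure D1:**
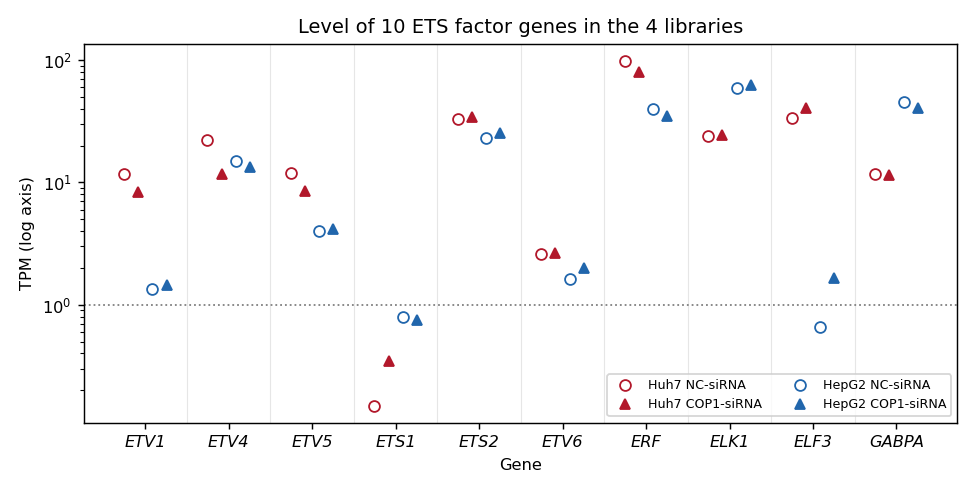
Level of each ETS factor gene in TPM (log axis) in each of the 4 libraries, Huh7 in red and HepG2 in blue, NC-siRNA as open circles and COP1-siRNA as filled triangles, with 1 library per point and a dotted line at 1 TPM. The 2 points of a line lie close together for most genes, ETV4 in Huh7 cells goes from 22.1 to 11.7 TPM, and ETS1 stays under the dotted line throughout.

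ETV1, ETV4 and ETV5 form the PEA3 group, activators that act downstream of receptor tyrosine kinases and ERK. ETV4 (Gene 2118, chromosome 17, 43527843 to 43546340, minus strand, GRCh38) was at 22.1 and 11.7 TPM in Huh7 cells with NC-siRNA and COP1-siRNA, and at 15.02 and 13.36 TPM in HepG2 cells. Its level was thus lower with COP1-siRNA in both lines, by 0.86 in Huh7 cells and by 0.16 in HepG2 cells on the log2 scale. ETV4 was the only one of the 9 factors compared in Huh7 cells that was at least 1.5-fold lower, where 2.68% of all 13000 genes compared were. Its difference in Huh7 cells lay below the middle 95% of genes of like level, those with a mean of 5 to 20 TPM, which ran from −0.58 to 0.56. In HepG2 cells it lay inside that range, which ran from −0.50 to 0.54. The locus of ETV4 shares 16957 bases with that of DHX8, an RNA helicase gene on the opposite strand. DHX8 was at 24.4 and 23.0 TPM in Huh7 cells and 36.0 and 44.4 TPM in HepG2 cells. The library kit keeps the strand, but whether the counting used it is not given in the sources used here.

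ETV5 (Gene 2119, chromosome 3, 186046314 to 186109089, minus strand) was at 11.96 and 8.43 TPM in Huh7 cells with NC-siRNA and COP1-siRNA, and at 4.01 and 4.19 TPM in HepG2 cells. The log2 fold change was −0.46 in Huh7 cells and 0.05 in HepG2 cells. ETV1 (Gene 2115, chromosome 7, 13891229 to 13991425, minus strand) was at 11.7 and 8.40 TPM in Huh7 cells, and at 1.34 and 1.44 TPM in HepG2 cells, log2 fold changes of −0.44 and 0.07. Both genes were lower with COP1-siRNA in Huh7 cells and slightly higher in HepG2 cells, and both differences in Huh7 cells lay inside the middle 95% of genes compared there, which ran from −0.60 to 0.61. In HepG2 cells ETV1 had a mean coverage of 1.59 and 2.49 reads per base, against 19.4 and 15.1 in Huh7 cells, so that its value in HepG2 cells rests on few reads. The summed level of the 3 genes was 62.4% of control in Huh7 cells and 93.3% in HepG2 cells.

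Members of the family can bind at each other's promoters, and since the 3 PEA3 genes were lower together in Huh7 cells, their promoters were searched for the letters CCGGAA, the core of many ETS sites, on both strands. The windows were those of RefSeq on GRCh38.p14, from 250 bases before to 50 bases after each annotated start. There were 15 windows for 7 of the 10 factors, with none for ETV4, ETV5 and ETS1. Of these, 4 windows of 2 factors, ETV1 and GABPA, held the letters, and 17.2% of all 35116 windows did. A stretch of 100 bases around each match is given for ETV1 where it overlaps no exon annotated by GENCODE 29, 5′ to 3′ on the strand of the gene, the match in capitals. The upstream stretch is chr7:13991509-13991608, minus strand, outside the annotated gene, with the match beginning 136 bases before the start at 13991425. The other is chr7:13990791-13990890, minus strand, intronic in the longest form of ETV1 and ahead of starts at 13990702 and 13990706.
ETV1, upstream stretch: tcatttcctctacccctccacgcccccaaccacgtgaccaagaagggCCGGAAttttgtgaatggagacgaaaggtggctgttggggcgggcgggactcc
ETV1, intronic stretch: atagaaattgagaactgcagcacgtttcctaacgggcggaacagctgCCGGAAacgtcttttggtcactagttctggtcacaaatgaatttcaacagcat
A match describes the letters of these windows only, and no binding was measured.

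ETS2 and ETS1 are close relatives that ERK phosphorylates at a conserved threonine. ETS2 (Gene 2114, chromosome 21, 38805183 to 38824955, plus strand) was at 33.1 and 34.1 TPM in Huh7 cells with NC-siRNA and COP1-siRNA, and at 23.2 and 25.5 TPM in HepG2 cells. Its log2 fold changes were 0.04 and 0.13, well inside the spread of genes of its level. ETS1 (Gene 2113, chromosome 11, 128458761 to 128587593, minus strand), abundant in lymphoid and endothelial cells, was at 0.150 and 0.346 TPM in Huh7 cells and at 0.789 and 0.747 TPM in HepG2 cells. It was under 1 TPM in every library, with a mean coverage of at most 0.288 reads per base, and was not compared. Whether ETS1 changed cannot be told at this coverage.

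**Figure D2:**
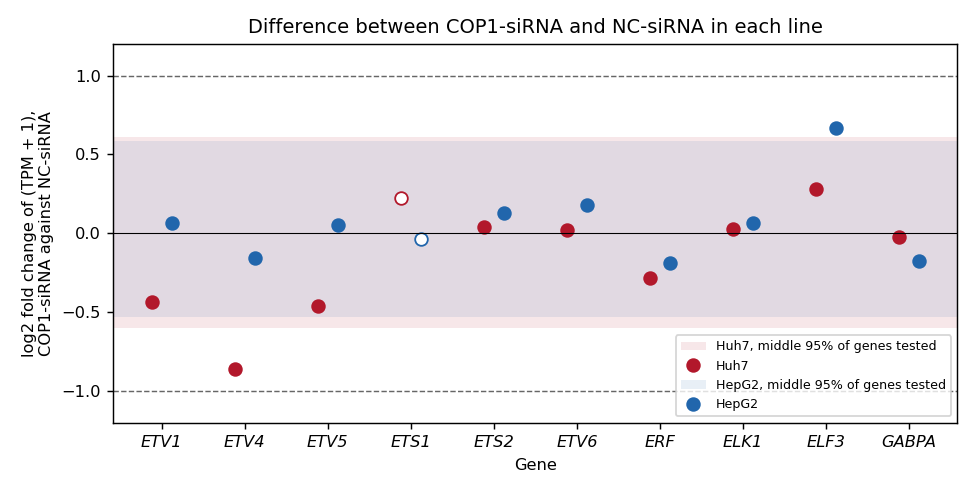
Log2 fold change of TPM + 1, COP1-siRNA against NC-siRNA, for each ETS factor gene in Huh7 (red) and HepG2 (blue) cells, from 1 library per condition, with open circles for ETS1, which was under 1 TPM. The bands span the middle 95% of all genes compared in each line and the dashed lines mark 2-fold, and only ETV4 in Huh7 cells at −0.86 and ELF3 in HepG2 cells at 0.67 lie outside the band of their line.

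ETV6 and ERF are repressors. ERF (Gene 2077, chromosome 19, 42247561 to 42255128, minus strand), which leaves the nucleus when ERK phosphorylates it, was at 97.7 and 80.2 TPM in Huh7 cells with NC-siRNA and COP1-siRNA, and at 39.7 and 34.8 TPM in HepG2 cells. Its level was lower in both COP1-siRNA libraries, at −0.28 and −0.19 on the log2 scale. ETV6 (Gene 2120, chromosome 12, 11649601 to 11895386, plus strand), a repressor best known from leukaemia translocations, was at 2.58 and 2.64 TPM in Huh7 cells and 1.63 and 1.98 TPM in HepG2 cells. Its log2 fold changes were 0.02 and 0.18.

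ELK1 (Gene 2002, chromosome X, 47635520 to 47650604, minus strand), a ternary complex factor that binds with SRF at immediate early genes, was at 23.8 and 24.3 TPM in Huh7 cells and 59.1 and 61.9 TPM in HepG2 cells. Its log2 fold changes were 0.03 and 0.07. GABPA (Gene 2551, chromosome 21, 25734972 to 25772460, plus strand), the DNA-binding subunit of the factor GABP, was at 11.7 and 11.5 TPM in Huh7 cells and 45.5 and 40.2 TPM in HepG2 cells, log2 fold changes of −0.03 and −0.17. Both genes lay between 88.4% and 105% of control in each line. GABPA shares 683 bases with ATP5PF, an ATP synthase gene on the opposite strand that was at 182 to 359 TPM in the 4 libraries and was likewise higher in HepG2 cells. Its part in the values of GABPA was not tested.

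ELF3 (Gene 1999, chromosome 1, 202010583 to 202017183, plus strand), a factor restricted to epithelial cells, was at 33.4 and 40.9 TPM in Huh7 cells with NC-siRNA and COP1-siRNA, and at 0.662 and 1.64 TPM in HepG2 cells. Its level was higher in both COP1-siRNA libraries, at 0.28 and 0.67 on the log2 scale. In HepG2 cells it was the only one of the 9 factors compared that was at least 1.5-fold higher, where 2.56% of all 14456 genes compared were. It reached 1 TPM there with COP1-siRNA alone, so only a higher level could be counted for it in that line. The ratio of the TPM values themselves was 2.48 there, on a mean coverage of 1.60 and 4.84 reads per base. Its difference on the scale of TPM + 1 lay inside the middle 95% of HepG2 genes with a mean of 0.5 to 5 TPM, which ran from −0.68 to 0.83. All 8 liver parenchymal markers were also higher with COP1-siRNA in HepG2 cells, with a median of 0.39, where 6988 of all 14456 genes were. In Huh7 cells 7 of the 8 were lower, with a median of −0.11, where 6519 of all 13000 genes were. The part of these markers in the values of ELF3 was not tested.

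Of the 9 factors compared in each line, 0 were past 2-fold with COP1-siRNA in Huh7 cells, against 1.08% of all genes, and 0 in HepG2 cells, against 0.934% of all 14456 genes. The counts on either side of 0 were 4 higher and 5 lower in Huh7 cells and 6 higher and 3 lower in HepG2 cells. Of all genes compared, 6481 of 13000 and 6988 of 14456 were higher. ELF3 is among the 6 in HepG2 cells only because its COP1-siRNA library reached 1 TPM. The medians of the factors, −0.03 and 0.07, were near those of all genes compared, −0.00083 and −0.0080. Of the other 18 ETS family genes, 7 were compared in each line and 0 were past 2-fold, with log2 fold changes from −0.30 to 0.24 in Huh7 cells and from −0.25 to 0.13 in HepG2 cells.

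The difference with COP1-siRNA that the lines share was fitted with limma, with the cell line as a term. This uses the 2 lines as the units and the disagreement between them as the error, with 1 residual degree of freedom for each gene moderated over all 15486 genes. No gene passed an adjusted p of 0.05 (0% of genes tested), and 1670 genes (10.8%) had an unadjusted p under 0.05, as did 3 of the 9 factors tested. These 3 were ELF3, at 0.48 ± 0.14 (SE, 2 lines, 95% confidence interval 0.13 to 0.82, adjusted p = 0.312), ETV4, at −0.51 ± 0.18 (−0.94 to −0.07, adjusted p = 0.394), and ERF, at −0.23 ± 0.084 (−0.44 to −0.03, adjusted p = 0.404). None of the 3 held after adjustment over all genes. The intervals of ETV1 (−0.59 to 0.22) and ETV5 (−0.59 to 0.19) included 0, and so did those of ETS2 (−0.14 to 0.31), ETV6 (−0.26 to 0.46), ELK1 (−0.17 to 0.26) and GABPA (−0.34 to 0.14). On the scale of TPM + 1, the intervals of the 9 factors tested stayed within 1 on either side of 0. Of the 5.84 degrees of freedom behind them, 4.84 were taken from other genes. With a pseudocount of 0.1, ELF3 alone was at 1.19 in HepG2 cells. With 1 library per condition, the intervals cannot exclude a shared 2-fold change.

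The second comparison the design allows is that of the lines. The comparisons with NC-siRNA and with COP1-siRNA do not share libraries with each other, but each shares its libraries with the comparisons within a line. With NC-siRNA, 6 of the 9 factors compared differed by 2-fold or more between Huh7 and HepG2 cells, and 42.6% of all 15055 genes did. Of these, 4 were higher in Huh7 cells (14.7% of all genes were) and 2 were higher in HepG2 cells (27.9% of all genes). With COP1-siRNA, 5 factors were past 2-fold, and 40.1% of all genes were. In bulk libraries, fewer cells that express a gene and less RNA of it per cell cannot be told apart.

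ELF3, ETV1, ETV5 and ERF were the factors higher in Huh7 cells. For ELF3 the log2 fold change, Huh7 against HepG2, was 4.37 with NC-siRNA and 3.99 with COP1-siRNA. For ETV1 it was 2.44 and 1.94, for ETV5 1.37 and 0.86, and for ERF 1.28 and 1.18. ETV5 was thus under 2-fold on this scale with COP1-siRNA, although the ratio of its TPM values was 2.01. ELK1, at −1.27 and −1.31, and GABPA, at −1.87 and −1.72, were the factors higher in HepG2 cells. ETV4 changed sides, from 0.53 with NC-siRNA to −0.17 with COP1-siRNA. ETS2, at 0.50 and 0.40, and ETV6, at 0.45 and 0.29, were under 1.5-fold higher in Huh7 cells on this scale. The ratio of the TPM values of ETV6 was 1.59 with NC-siRNA. The median of all genes compared was −0.37 with NC-siRNA and −0.35 with COP1-siRNA, toward HepG2 cells. Relative to these medians, ELK1 was at −0.91 and −0.96, under 2-fold, and GABPA was at −1.50 and −1.38, while ETV4 was at 0.90 and 0.17, on the side of Huh7 cells with both siRNAs.

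**Figure D3:**
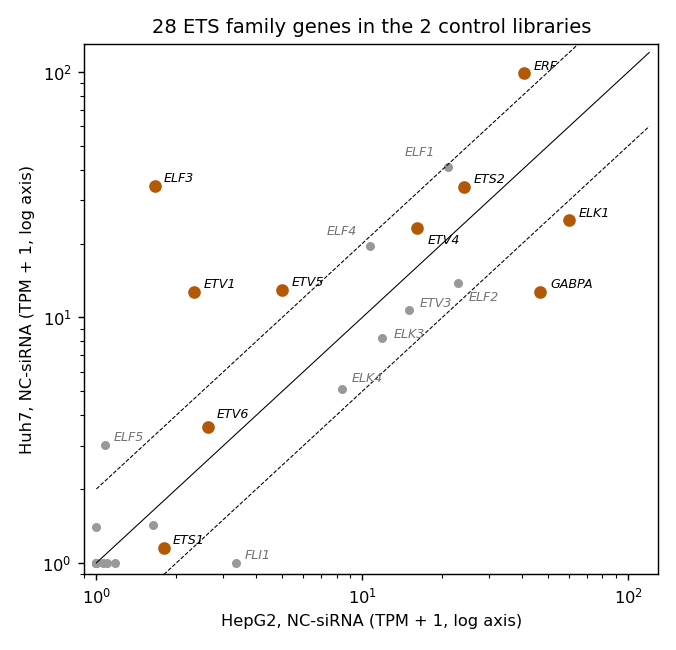
Levels of the 28 ETS family genes in the control libraries, HepG2 on the horizontal and Huh7 on the vertical axis, in TPM + 1 on log axes, 1 library each, with the 10 factors described here in brown and the other 18 in grey. The solid line marks equal levels and the dashed lines 2-fold, and ELF3, ETV1, ETV5 and ERF lie above the band while ELK1 and GABPA lie below it.

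The order of the levels differed between the lines. In Huh7 cells with NC-siRNA, ERF led at 97.7 TPM, 2.92-fold above ELF3, and was followed by ELF3, ETS2, ELK1, ETV4, ETV5, ETV1, GABPA, ETV6 and ETS1. ELF3 and ETS2 lay within 1.01-fold of each other, ELK1 and ETV4 within 1.08-fold, ETV5 and ETV1 within 1.02-fold, and ETV1 and GABPA within 1.001-fold, and without replicates the order of these neighbours cannot be read. With COP1-siRNA the first 5 places in Huh7 cells were held by the same genes in the same order, and GABPA, ETV5 and ETV1 followed at 11.5, 8.43 and 8.40 TPM. In HepG2 cells with NC-siRNA, ELK1 led at 59.1 TPM, followed by GABPA, ERF, ETS2, ETV4, ETV5, ETV6, ETV1, ETS1 and ELF3. With COP1-siRNA the first 7 of these kept their places, and ELF3 stood above ETV1 and ETS1.

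Across the family of 28 genes, 16, 16, 15 and 16 reached 1 TPM in Huh7 cells with NC-siRNA and COP1-siRNA and in HepG2 cells with NC-siRNA and COP1-siRNA. The 10 factors held 72.3% of the summed TPM of the family in Huh7 cells with NC-siRNA. Among the other 18 genes, the epithelial factor ELF5 was more than 2-fold higher in Huh7 cells, at 2.03 and 1.46 TPM with NC-siRNA and COP1-siRNA against 0.0771 and 0.0756 TPM in HepG2 cells. FLI1, known from blood and endothelial cells, was at 2.35 and 2.34 TPM in HepG2 cells and was listed at 0 in Huh7 cells. Its mean coverage in HepG2 cells was 0.297 and 0.371 reads per base. Coverage scaled to a sum of 1000000 was an alternative chosen after the values were seen. On it FLI1 was at 0.152 in HepG2 cells and 0 in Huh7 cells with NC-siRNA. With 1 added, its log2 fold change between the lines was −0.20 in place of −1.74, under 2-fold. The added 1 understates the change of such small values more than it does for TPM. ELF4 was at 18.5 and 18.3 TPM in Huh7 cells and at 9.69 and 8.34 TPM in HepG2 cells, past 2-fold with COP1-siRNA alone, with a log2 fold change of 1.05. Of the binding partners, SRF was at 22.5 and 26.2 TPM in Huh7 cells and 37.9 and 39.8 TPM in HepG2 cells. GABPB1, which carries the activation domain of GABP, was at 21.1 to 26.7 TPM in all 4 libraries, while GABPB2 was past 2-fold higher in HepG2 cells, at 3.25 and 3.54 TPM against 0 and 0.0373 TPM.

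Of 9 genes of COP1, its complex and its TRIB adaptors, 7 were compared in Huh7 cells and 9 in HepG2 cells, and COP1 in Huh7 cells was the 1 past 2-fold with COP1-siRNA, against 1.08% and 0.934% of all genes. Between the lines with NC-siRNA, 2 of the 9 were at least 2-fold higher in Huh7 cells and 4 in HepG2 cells, against 14.7% and 27.9% of all genes. COP1, DDB1 and CUL4A were under 2-fold, at −0.43, 0.69 and 0.45 on the log2 scale. DET1, the subunit that joins COP1 to DDB1, was at 0.157 and 0.0370 TPM in Huh7 cells and at 7.98 and 8.63 TPM in HepG2 cells. TRIB1 and TRIB3, pseudokinases that bind COP1, were more than 2-fold higher in Huh7 cells with both siRNAs, TRIB1 at 56.1 and 54.2 TPM against 23.4 and 26.5 TPM, and TRIB3 at 129 and 128 TPM against 27.9 and 38.0 TPM. TRIB2 was higher in HepG2 cells, at 1.997 and 2.006 TPM against 0.0171 and 0 TPM. CUL4B was also past 2-fold higher in HepG2 cells, at 71.7 and 55.4 TPM against 28.6 and 17.8 TPM, and RBX1, at 139 and 134 TPM against 63.7 and 68.1 TPM, was past 2-fold with NC-siRNA.

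Genes that ETS factors are known to activate were counted from 4 lists, 31 genes in all. Of the 26 compared in Huh7 cells and the 28 compared in HepG2 cells, 0 were past 2-fold with COP1-siRNA, against 1.08% and 0.934% of all genes, so that the count is near the background. The list for ERK and the PEA3 group holds 12 genes, among them the feedback inhibitors of ERK signalling DUSP4, DUSP6, SPRY2, SPRY4, SPRED1 and SPRED2. In Huh7 cells 9 of them were compared, and 8 were lower and 1 was higher with COP1-siRNA, where 6519 of all 13000 genes were lower. Their median log2 fold change was −0.21 against −0.00083 over all genes. In HepG2 cells 10 were compared, and 6 were higher and 4 were lower, with a median of 0.04, where 6988 of all 14456 genes were higher. The 2 genes of highest mean level over the 4 libraries were CCND1, cyclin D1, at 154 and 132 TPM in Huh7 cells and 15.7 and 22.0 TPM in HepG2 cells, and PHLDA1, at 60.6 and 52.4 TPM and at 9.76 and 13.0 TPM. Both were lower in Huh7 cells and higher in HepG2 cells with COP1-siRNA. In HepG2 cells SPRED2, at 12.9 and 15.5 TPM, stood above PHLDA1.

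DUSP6 and SPRY4 were singled out after their values were seen, as the genes of this list at least 1.5-fold lower in Huh7 cells, where 2.68% of all genes were. DUSP6, the phosphatase that turns off ERK, was at 54.5 and 32.0 TPM in Huh7 cells and at 2.17 and 2.16 TPM in HepG2 cells. SPRY4, a Sprouty inhibitor of receptor signalling, was at 17.5 and 10.6 TPM in Huh7 cells and at 1.26 and 1.42 TPM in HepG2 cells. Their log2 fold changes in Huh7 cells were −0.75 and −0.67, and in HepG2 cells they were −0.00097 and 0.10. The promoter windows of both, 1 each, held no match of CCGGAA. Between the lines, 7 of the 10 genes compared were at least 2-fold higher in Huh7 cells with NC-siRNA, against 14.7% of all genes, and 1, PTGS2, was at least 2-fold higher in HepG2 cells, at 1.49 TPM against a listed 0.

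**Figure D4:**
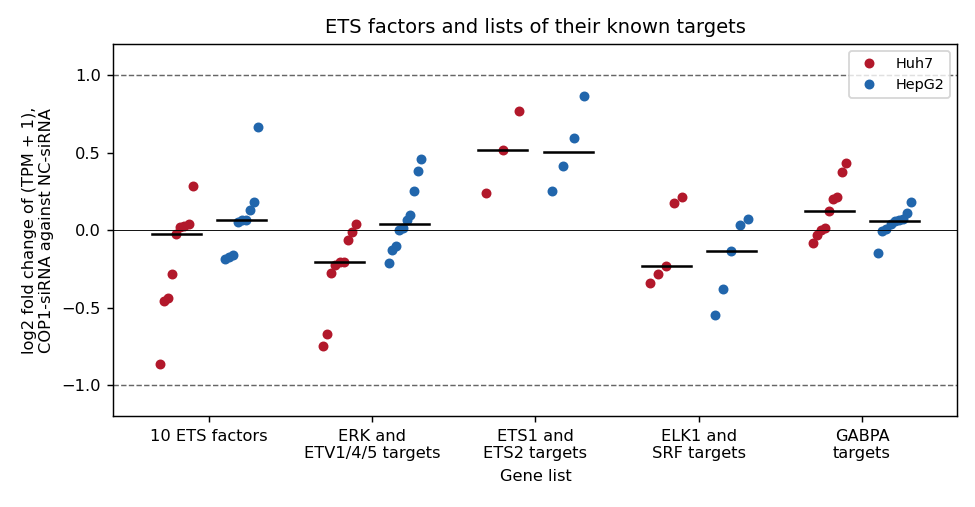
Log2 fold change of TPM + 1, COP1-siRNA against NC-siRNA, of the ETS factors and of the genes of 4 target lists that reached 1 TPM, in Huh7 (red) and HepG2 (blue) cells, with 1 point per gene sorted by value, a black bar at the median and dashed lines at 2-fold. No point crosses 2-fold, and the list for ERK and the PEA3 group has a median of −0.21 in Huh7 cells and 0.04 in HepG2 cells.

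The list for ETS1 and ETS2 holds 5 genes of matrix turnover. All 3 compared in Huh7 cells and all 4 compared in HepG2 cells were higher with COP1-siRNA, with medians of 0.52 and 0.50. Of all genes compared, 6481 of 13000 were higher in Huh7 cells and 6988 of 14456 in HepG2 cells. PLAU in Huh7 cells, at 0.969 and 1.82 TPM, and MMP3 in HepG2 cells reached 1 TPM with COP1-siRNA alone. For these entries only a higher level could be counted. With limma, 0 genes of the list passed an adjusted p of 0.05, the lowest being 0.255. The 2 genes of highest mean level were ANPEP, aminopeptidase N, at 14.9 and 17.8 TPM in Huh7 cells and 24.4 and 37.3 TPM in HepG2 cells, and PLAUR, the urokinase receptor, at 1.67 and 3.54 TPM and at 6.47 and 8.97 TPM. By the TPM values themselves PLAU had a ratio of 1.87 in Huh7 cells. On the scale of TPM + 1, PLAUR was the 1 gene of the list at least 1.5-fold higher in Huh7 cells, where 2.8% of all genes were. On scaled coverage, also chosen after the values were seen, it went from 0.523 to 1.02 there. With 1 added, its log2 fold change was 0.41 in place of 0.77, under 1.5-fold. The added 1 weighs more at these values than at 1.67 and 3.54 TPM. In HepG2 cells ANPEP and MMP3 were at least 1.5-fold higher, the latter from 0.158 to 1.11 TPM, with a log2 fold change of 0.86 that became 1.00, at 2-fold, on coverage.

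The list for ELK1 and SRF holds 5 genes, and in each line 3 were lower and 2 were higher with COP1-siRNA, with medians of −0.23 and −0.14. Among all genes compared, 6519 of 13000 were lower in Huh7 cells and 7468 of 14456 in HepG2 cells. MCL1, a survival factor of the BCL2 family, was at 122 and 100.4 TPM in Huh7 cells and 126 and 114 TPM in HepG2 cells. EGR1, an immediate early gene, was chosen after its values were seen. It was at 1.78 and 1.19 TPM in Huh7 cells and at 35.8 and 24.2 TPM in HepG2 cells, lower with COP1-siRNA in both lines. The 9 nuclear genes for mitochondrial proteins listed for GABPA had medians of 0.12 and 0.06, with log2 fold changes from −0.08 to 0.43 in Huh7 cells and from −0.14 to 0.18 in HepG2 cells. ATP5F1B was at 1385 and 1358 TPM in Huh7 cells and 1080 and 1110 TPM in HepG2 cells, and COX4I1 was at 637 and 693 TPM and at 791 and 831 TPM. With NC-siRNA 8 of these 9 genes were higher in HepG2 cells, 1 of them, TFB1M, by 2-fold or more. Of all 15055 genes compared, 9478 were higher in HepG2 cells and 27.9% were so by 2-fold or more.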

How the data were processed

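Per the submitters' processing notes, FastQC 0.11.7, Trimmomatic 0.38, HISAT2 2.1.0, StringTie 2.1.3b and edgeR were used with GRCh38. Gene tables, 1 for each library, were deposited with TPM, FPKM and coverage, the mean number of reads per base. The deposited coverage is a signal that is not scaled to depth, and the deposited FPKM and TPM are scaled for length and library. The column of gene names holds no symbols, so genes were named by NCBI Gene number through RefSeq GRCh38.p14 (44698 of 46427 numbers). Values of 49 numbers on more than 1 line were summed.

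Fold changes were log2 ratios of TPM + 1 for genes with at least 1 TPM in 1 of the libraries compared, with a 2-fold threshold and no test within a line. limma 3.58.1 (R 4.3.3, trend, cell line as a term, Benjamini-Hochberg adjustment over all genes) was run on the 4 libraries and tested on simulated data. With 2 lines, the error behind the p-values is the disagreement between the lines, moderated by that of other genes. The other genes gave 4.84 of its 5.84 degrees of freedom. Python 3.11.15, numpy 2.4.6, pandas 2.3.3 and matplotlib 3.10.9 were used.

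All 10 factors were named. Of the other family genes, partners and ligase genes, COP1 and those past 2-fold were named. Of each target list the 2 genes of highest mean TPM were named, and 0 genes were past 2-fold with COP1-siRNA. Target genes past 2-fold between the lines were described only in part, and MMP14 and FOS, past it with NC-siRNA, were not. SRF, GABPB1, DHX8, ATP5PF, PLAU and the marker genes were named for context. The factors, lists and tests were chosen with earlier results of these data known. Alternatives were a pseudocount of 0.1, FPKM or coverage in place of TPM, median-of-ratios and upper-quartile scaling, a minimum of 5 TPM or none, repeated numbers kept apart, a 1.5-fold threshold, and limma without a trend or without the line. Coverage was scaled to a sum of 1000000 in each library, and 1 was added before the ratio, as for TPM. Its use for FLI1, PLAUR and MMP3 was added after the values were seen. Protein sequences were not analysed here.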

Additional observations from a re-analysis of the deposited data

Results flagged for a closer look

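For 3 of the factors the log2 fold change with COP1-siRNA had opposite signs in the lines, and with 1 library per condition the difference between the lines was not tested. The share of all genes with opposite signs was not counted, so opposite signs cannot be read as a trait of these factors. Of all genes compared, 6481 of 13000 were higher in Huh7 cells and 6988 of 14456 in HepG2 cells, which does not give that share. ETV1 was at −0.44 in Huh7 cells and 0.07 in HepG2 cells, a difference of −0.50. ETV5 was at −0.46 and 0.05, a difference of −0.51. ETS1, under 1 TPM in every library and so not compared above, was at 0.23 and −0.03, a difference of 0.26. The knockdown of COP1 mRNA was itself larger in Huh7 cells, at a log2 fold change of −1.53 against −0.71, and its part in these differences was not tested.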

How the results depend on the processing

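In Huh7 cells 0 factors, and in HepG2 cells 0 factors, were past 2-fold with COP1-siRNA. With a pseudocount of 0.1 the count in HepG2 cells became 1, ELF3 at 1.19, and with a 1.5-fold threshold it was 1 in each line. ETV4 in Huh7 cells ranged from −0.91 to −0.73 over 8 alternatives. Under upper-quartile scaling, which moved the median of all genes to 0.12 in Huh7 cells, the median of the factors there was 0.10. With a minimum of 5 TPM the medians were −0.15 in Huh7 cells and −0.16 in HepG2 cells, over 8 and 5 factors. GABPA in Huh7 cells changed sign in 2 alternatives and ETV6 in 1. The median between the lines with NC-siRNA was 0.64 with a pseudocount of 0.1, 0.41 with FPKM, 0.85 under median-of-ratios scaling and 0.90 with a minimum of 5 TPM. With COP1-siRNA it was 0.72 and 0.63 under the last 2. Under median-of-ratios scaling ELK1 fell under 2-fold between the lines, at −0.94 and −0.99, ETV5 passed it with COP1-siRNA at 1.14, and ETV4 with COP1-siRNA was at 0.13. Median-of-ratios scaling moved the median of all genes between the lines from −0.37 to −0.06 with NC-siRNA and from −0.35 to −0.06 with COP1-siRNA. The cause of the changes under these alternatives was not tested, other than that a higher minimum leaves fewer factors. Over all genes limma gave 0 genes, but 135 with FPKM, 6 under median-of-ratios scaling and 10 with a minimum of 5 TPM, and 0 factors were called in any of these fits. In the fit without the line as a term, which gives no replicate block, 0 genes were called and 10 had an unadjusted p under 0.05. Each condition has 1 library, so no replicate was left out. Depth is unknown, and values of ETV1, ETV6, ETS1, ELF3 and FLI1 in HepG2 cells rest on few reads. Those of ETS1 and ETV6 in Huh7 cells do so too, at a mean coverage of 0.054 and 0.148 for ETS1 and 1.74 and 2.07 for ETV6.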
